A study of Mus musculus with 2 samples.

Results

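Among skin innate lymphoid cells (ILCs), lymphocytes known to respond to tissue signals without a rearranged antigen receptor, 193 cells held at least 3 UMIs of Hopx together with at least 1 UMI of Cd70 and were selected on these counts. UMIs are sequence tags that mark each captured RNA molecule before amplification, so that each is counted once. The 193 Hopx Cd70 cells were 7.45% (exact 95% interval 6.47 to 8.53%) of the 2589 cells of set 2 that met the other limits, and 3.68% of all 5246 deposited cells. The limits were at most 10% mitochondrial UMIs, fewer than 3 UMIs of Mki67, Top2a and Birc5 together, which mark dividing cells, and fewer than 10 UMIs of the heat-shock genes Hspa1a and Hspa1b together. The comparison cells were the 1438 cells of set 2 within the same limits that held no UMI of Hopx and none of Cd70.

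The labels list 2 libraries of skin from C57/BL6 mice, taken on postnatal day 1 and on postnatal day 14. Both were digested with collagenase, sorted as CD45+, Lin-, Thy1.2+ cells and captured with a 10x Genomics 5' kit, and the labels name no transgene or treatment. Cell names carry a suffix that divides them into set 1 (1471 cells) and set 2 (3775 cells), and the suffix matches neither day, so the table was treated as 1 pooled sample and the ages were not compared. Each group of cells is therefore 1 sample without replicates, no test was run, and the 95% intervals given here cover counting error only.

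Hopx encodes a small homeodomain protein that does not bind DNA by itself and is found in several long-lived lymphocyte populations. Cd70 encodes a ligand of the TNF superfamily that engages the receptor CD27 on other lymphocytes and appears on lymphocytes and dendritic cells after stimulation. Ccr7 encodes the chemokine receptor that guides cells along lymphatic vessels to lymph nodes, and Bcl2a1b encodes a relative of Bcl2 that opposes cell death and is a known target of NF-kB. In skin, group 2 ILCs (ILC2s) are known for the transcription factor Gata3 and for the cytokines interleukin 5, interleukin 13 and amphiregulin.

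The Bcl2a1 genes are multiple copies, and the stretches just before 2 of them are shown because they are nearly alike and both genes are given below. Each line gives the 250 bases upstream of the RefSeq start of transcription on the gene's own strand, on GRCm38.p6. Capitals mark a match to the AP-1 motif TGANTCA. The GENCODE M21 annotation starts Bcl2a1b at chr9:89199209 and Bcl2a1d at chr9:88731914, inside these windows, so the 2 annotations differ on the starts. The motif is its own reverse complement, so both strands were searched, and it occurred in 6.75% of 32851 upstream windows of this length.
Bcl2a1b, chr9:89199023-89199272, plus strand: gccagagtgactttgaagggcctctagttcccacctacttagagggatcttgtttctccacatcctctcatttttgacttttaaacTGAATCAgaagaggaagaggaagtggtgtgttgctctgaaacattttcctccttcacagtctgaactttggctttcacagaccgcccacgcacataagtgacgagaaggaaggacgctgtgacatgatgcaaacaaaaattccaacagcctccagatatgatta
Bcl2a1d, chr9:88731851-88732100, minus strand: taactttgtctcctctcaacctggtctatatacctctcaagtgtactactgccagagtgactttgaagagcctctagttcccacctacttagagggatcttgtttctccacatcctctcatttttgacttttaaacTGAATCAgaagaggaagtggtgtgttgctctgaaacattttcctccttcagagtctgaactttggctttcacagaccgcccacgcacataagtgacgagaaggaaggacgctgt
The best local alignment of the windows ran over 206 columns, of which 198 were identical (96.1%), 2 were mismatches and 6 were gaps. The transcripts themselves were not compared, and whether reads were split between Bcl2a1b and Bcl2a1d in counting is not known, so their separate values are uncertain. Each window held 1 AP-1 match, and both Hopx windows held none. Among the 15 genes furthest above the comparison cells, 9 had a window in the table and 0 of these held the motif. Of the 15 genes furthest below, 11 had a window and 2 held the motif. These 2 were Zfp652 and Krtap3-2, and 1 comparison cell held 95% of the Krtap3-2 UMIs. Counted by gene, 7.82% of 27025 genes with a window held the motif. The counts are small and were not tested. A match is a run of letters and not evidence of binding.

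Hopx and Cd70 chose the cells, so their levels are given as a description. Per cell, Hopx ranged from 3 to 143 UMIs with a median of 10, and Cd70 from 1 to 30 UMIs with a median of 3. Of the cells of set 2 within the limits that held Cd70, 24 had 3 UMIs of Hopx and stood just inside the rule, and 34 had 2 UMIs and stood just outside. The limits on dividing and heat-shock cells removed 35 of the 228 cells that met the Hopx and Cd70 limits, 16 of them by the dividing limit and 25 by the heat-shock limit. In set 1, 43 cells within the limits held at least 3 UMIs of Hopx and 11 held Cd70, but 0 of 760 met both limits, which allows a share of up to 0.395% when 3 cells are taken as the limit of a count of 0.

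The Hopx Cd70 cells were deeper than the comparison cells, with a median of 5946 UMIs (range 1298 to 16168) and 1833 genes, against 4373.5 UMIs (range 500 to 18518) and 1423.5 genes. A rule that asks for UMIs favours cells with more of them, and the mitochondrial share was alike at a median of 2.71% in Hopx Cd70 cells and 2.63% in comparison cells. Summed, the groups held 1257309 and 6324282 UMIs, so 3 UMIs amount to 2.39 CPM, the UMIs of a gene per 1000000 UMIs of the group, in Hopx Cd70 cells and 0.474 CPM in comparison cells. UMIs of both Xist and Y-linked genes are a mark of 2 cells in a droplet where animals of both sexes were pooled. They occurred in 5 Hopx Cd70 cells (2.59%, 0.846 to 5.94%) and 13 comparison cells (0.904%, 0.482 to 1.54%), with intervals that overlap. Neither kind was read in 16 of 193 Hopx Cd70 cells and 416 of 1438 comparison cells, so the mark could be seen less often in comparison cells. No doublet caller was run. Of the barcodes, 4 occurred in both sets, none of them in a Hopx Cd70 cell or a comparison cell.

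Hopx Cd70 cells carried more RNA of a costimulatory receptor, a cytokine and several signalling genes, and less of the chemokine receptor gene Ccr2 and of Fos. Of 5716 genes with at least 100 UMIs over both groups, 259 (4.53%) were at least 1.5-fold higher and 247 (4.32%) at least 1.5-fold lower in Hopx Cd70 cells, on the scale of CPM + 10. Of these called genes 4 are genes the rule itself used. At 2-fold, 79 genes (1.38%) were higher and 49 (0.857%) lower. The median gene had a log2 ratio of -0.03.

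Tnfrsf4 encodes OX40, a receptor that sustains activated lymphocytes. It stood at 341 CPM (310 to 375) in Hopx Cd70 cells, against 49.6 CPM (44.3 to 55.5) in comparison cells, a ratio of 6.87 (5.93 to 7.97). At least 1 UMI of it was present in 114 of the 193 Hopx Cd70 cells and in 156 of the 1438 comparison cells. The intervals lie far apart, and the single richest cell held only 3.26% of the UMIs in the Hopx Cd70 cells.

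Stat5a, which carries signals of interleukin 2 and interleukin 7 to the nucleus, was at 163 CPM (141 to 187) in Hopx Cd70 cells and 30.4 CPM (26.2 to 34.97) in comparison cells. Its ratio was 5.37 (4.39 to 6.57). Csf2, which encodes the cytokine GM-CSF, was at 227 CPM (202 to 255) in Hopx Cd70 cells and 67.8 CPM (61.6 to 74.6) in comparison cells, a ratio of 3.35 (2.88 to 3.90). Both genes were spread over many cells, with the richest Hopx Cd70 cell holding 4.39% of Stat5a and 7.69% of Csf2 UMIs.

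Some of the largest ratios rested on few cells. Tff1, a secreted trefoil peptide best known from stomach mucus, was at 111 CPM in Hopx Cd70 cells and 1.11 CPM in comparison cells, but 20 Hopx Cd70 cells held all of its UMIs and 1 cell held 30.9% of them. Without the richest cell of each group Tff1 stood at 76.95 CPM in Hopx Cd70 cells and 0.158 CPM in comparison cells. Timp3, an inhibitor of matrix proteases, was at 72.4 CPM in Hopx Cd70 cells and 6.32 CPM in comparison cells, with UMIs in 19 and 17 cells. Tph1, the enzyme that starts serotonin synthesis and is known in ILC2s, was at 89.9 CPM in Hopx Cd70 cells and 16.9 CPM in comparison cells, and its richest cells held 21.2% and 21.5% of its UMIs. Among cells of like depth its log2 ratio was 0.97, against 1.89 over all cells.

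The neutrophil attractant Cxcl3 was at 323 CPM in Hopx Cd70 cells, against 66.1 CPM in comparison cells, with UMIs in 49 and 98 cells. In Hopx Cd70 cells 1 cell held 19.7% of its UMIs, and without the richest cell of each group Cxcl3 was at 261 and 61.1 CPM. The invariant chain gene Cd74 was at 236 CPM in Hopx Cd70 cells, against 56.1 CPM in comparison cells. The vesicle fusion gene Stx11 was at 240.2 CPM in Hopx Cd70 cells, against 70.0 CPM in comparison cells. Slc2a6, Endod1, Slc15a3, Dgat2, Pard6g and Prr29 completed the 15, with ratios between 3.76 for Dgat2 and 6.53 for Slc2a6.

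At the other end stood Ccr2, the receptor by which inflammatory chemokines recruit cells from blood. It was at 17.5 CPM (11.0 to 26.5) in Hopx Cd70 cells and 166 CPM (156 to 177) in comparison cells, 9.50-fold lower (6.24 to 15.2). UMIs of Ccr2 lay in 6 of 193 Hopx Cd70 cells and in 283 of 1438 comparison cells.

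Fos, a subunit of the AP-1 transcription factor that appears within minutes of stimulation, was at 215 CPM in Hopx Cd70 cells and 732 CPM in comparison cells, 3.41-fold lower (3.01 to 3.87). Zfp36 and Zfp36l2 encode proteins that bind AU-rich mRNAs and speed their decay. Zfp36 was at 97.8 CPM in Hopx Cd70 cells and 274 CPM in comparison cells, and Zfp36l2 at 309 and 767 CPM. Nkg7, a cytotoxic granule protein, Ly6a, the aryl hydrocarbon receptor gene Ahr and its target Tiparp were 2.66- to 3.55-fold lower. Zfp652 was 3.86-fold lower.

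Another 5 genes of the lowest 15 encode keratin-associated proteins of hair, Krtap8-1, Krtap3-2, Krtap4-2, Krtap14 and Krtap15, and 1 comparison cell held 90.0 to 97.1% of the comparison cells' UMIs of each. In the same way 1 comparison cell held 2408 of the 2524 haemoglobin UMIs of the comparison cells, while the Hopx Cd70 cells held 9. These values describe single cells and not the groups.

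**Figure D1:**
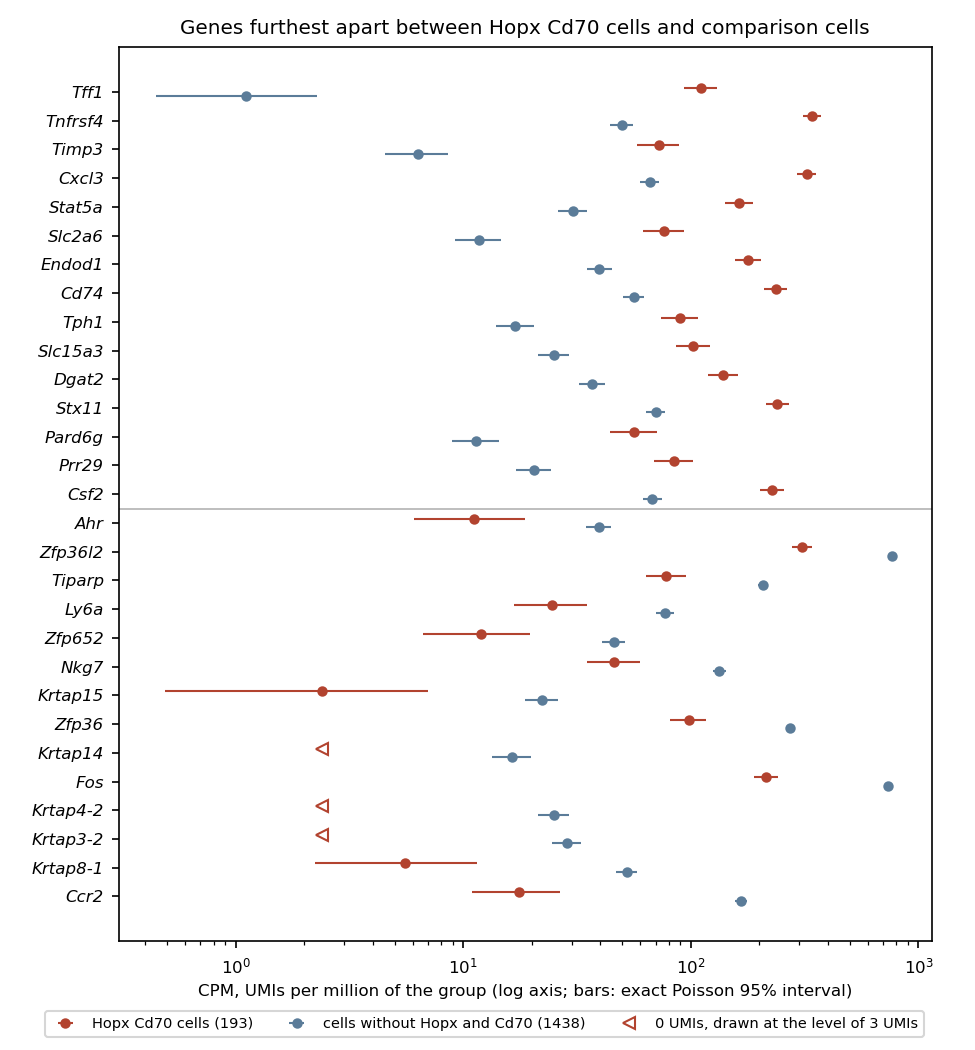
CPM of the 15 genes furthest above (upper block) and of those named among the 15 furthest below (lower block) in Hopx Cd70 cells (red) and in comparison cells (blue), on a log axis with exact Poisson 95% intervals. Tnfrsf4 stands at 341 CPM in Hopx Cd70 cells and 49.6 CPM in comparison cells, and Ccr2 at 17.5 and 166 CPM, while open triangles mark 3 Krtap genes with 0 UMIs in Hopx Cd70 cells, drawn at the level of 3 UMIs.

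The markers given with the rule were both higher. Ccr7 (chr11:99144196-99155077, minus strand, GENCODE M21 on GRCm38) was at 901 CPM (849 to 955) in Hopx Cd70 cells and 313 CPM (299 to 327) in comparison cells, a ratio of 2.88 (2.67 to 3.099). Bcl2a1b was at 303 CPM in Hopx Cd70 cells and 138 CPM in comparison cells, and its near copy Bcl2a1d at 244 and 97.6 CPM. Bcl2l1, another gene that opposes cell death, was at 115 CPM in Hopx Cd70 cells and 65.3 CPM in comparison cells, and Pmaip1, which promotes cell death, at 32.6 and 11.7 CPM. Of 12 measured genes of the Bcl2 family these 4 were higher, 0 were lower and the median log2 ratio was 0.09. A list gene was counted as measured with at least 20 UMIs over both groups. Over all 9335 genes with that many UMIs, 3.82% were 1.5-fold higher and 3.54% 1.5-fold lower, the shares beside which the list counts below stand.

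The TNF superfamily, to which Cd70 belongs, was read on the ligand and the receptor side. Of 9 measured ligands 4 were higher and 2 lower, with a median log2 ratio of 0.53 over all cells and 0.02 among cells of like depth. Tnfsf9 encodes 4-1BB ligand and lies near Cd70 on chromosome 17 (Tnfsf9 at chr17:57105325-57107757 and Cd70 at chr17:57145997-57149777). It was at 255 CPM in Hopx Cd70 cells and 89.8 CPM in comparison cells. Tnfsf14, which encodes LIGHT, was at 176 CPM in Hopx Cd70 cells and 94.9 CPM in comparison cells. Tnfsf8, which encodes the ligand of CD30, was at 66.0 CPM in Hopx Cd70 cells and 15.8 CPM in comparison cells, but in 19 and 33 cells. Tnfsf4, the ligand of OX40, was the other higher gene, with 21 and 13 UMIs. Tnf itself was lower, at 15.1 CPM in Hopx Cd70 cells and 44.3 CPM in comparison cells, as was Tnfsf11 at 19.1 and 38.1 CPM.

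Of 11 measured TNF receptors 5 were higher and 0 lower, with a median log2 ratio of 0.53. Besides Tnfrsf4 they were Tnfrsf18, which encodes GITR, at 632 CPM in Hopx Cd70 cells and 281 CPM in comparison cells, and Tnfrsf9, which encodes 4-1BB, at 209 and 117 CPM. The receptor of RANK ligand, Tnfrsf11a, was at 61.2 CPM in Hopx Cd70 cells and 15.3 CPM in comparison cells, and the death receptor Fas at 151 and 60.9 CPM. Cd27, the receptor of CD70, was at 181 CPM in Hopx Cd70 cells and 231 CPM in comparison cells and did not reach 1.5-fold.

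Of 18 genes of the NF-kB pathway 5 were higher and 1 lower, with a median log2 ratio of 0.26. Rel, a transcription factor subunit, was at 1512 CPM in Hopx Cd70 cells and 707 CPM in comparison cells, and Nfkb2, a subunit of the alternative pathway, at 177 and 91.2 CPM. Traf1, an adaptor of TNF receptors, was at 799 CPM in Hopx Cd70 cells and 412 CPM in comparison cells. Cflar and Tnip1 were also higher. Nfkbid, a nuclear IkB protein, was lower at 54.1 CPM in Hopx Cd70 cells and 105 CPM in comparison cells. Among cells of like depth Nfkbid was close, at 67.4 and 75.2 CPM. The inhibitor Nfkbia was close over all cells, at 1466 and 1498 CPM.

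Of 18 measured chemokine receptor and egress genes, 8 were lower and only Ccr7 was higher, with a median log2 ratio of -0.39. S1pr1, which lets lymphocytes leave tissue, was at 18.3 CPM in Hopx Cd70 cells and 46.0 CPM in comparison cells, and Cd69, which opposes it, at 71.6 and 155 CPM. Ccr10, a receptor of skin-homing cells, had 1 UMI in Hopx Cd70 cells and 87 in comparison cells, 17.3-fold lower with a counting interval of 3.02 to 691. Cxcr3 had 0 UMIs in Hopx Cd70 cells and 60 in comparison cells, at least 3.98-fold lower when 3 UMIs are allowed in the Hopx Cd70 cells. Gpr183 and Rgs1 were lower as well. Cxcr6, high in tissue lymphocytes, was at 1729 CPM in Hopx Cd70 cells and 1720.3 CPM in comparison cells, and Cxcr4 at 483 and 477 CPM.

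Of 17 early response genes 7 were lower, 1 (Egr2) was higher and 9 passed in neither direction, Jun, Junb and Jund among them, with a median log2 ratio of -0.46. Fosb was at 322 CPM in Hopx Cd70 cells and 572 CPM in comparison cells, and Atf3 at 185 and 373 CPM. Nr4a1 was at 432 CPM in Hopx Cd70 cells and 680.2 CPM in comparison cells. The heat-shock list had a median of -0.37, with 1 of 11 genes (Hspb1) lower, and its part in these values was not tested. In the 742 cells of set 2 above the heat-shock limit, which are in neither group, Fos was at 1282 CPM.

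Among cytokines 3 of 11 measured were higher and 2 lower, with a median log2 ratio of 0.29, or -0.0088 with at least 5 UMIs of Hopx. Il13 was at 562 CPM in Hopx Cd70 cells and 273 CPM in comparison cells, and Tgfb1 at 681 and 340.0 CPM, alongside Csf2. Il5 at 340.4 CPM in Hopx Cd70 cells and 233 CPM in comparison cells, and Areg, which encodes amphiregulin, at 1120 and 842 CPM, did not reach 1.5-fold. Il2, a growth factor for lymphocytes, was lower at 23.9 CPM in Hopx Cd70 cells and 65.8 CPM in comparison cells, and Il17a was the other lower gene.

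Of 15 genes of the JAK, STAT and SOCS list 6, Stat5a included, were higher and 1, Socs3, was lower. Stat4 was at 139 CPM in Hopx Cd70 cells and 56.9 CPM in comparison cells, the repressor Bcl6 at 136 and 69.3 CPM, and Stat3 and Stat6 were also higher. Of 16 receptors of the common gamma chain and alarmin families 4 were higher and 2 lower. Il1r2 encodes a decoy receptor that binds interleukin 1 without signalling. It was at 59.7 CPM in Hopx Cd70 cells and 1.11 CPM in comparison cells, with UMIs in 17 and 2 cells, and fell short of the 100 UMIs asked of the gene counts. Il18rap, a subunit of the interleukin 18 receptor, was at 246 CPM in Hopx Cd70 cells and 116 CPM in comparison cells, and Il2ra and Il21r were higher. Il1rl1, the interleukin 33 receptor, was at 9.54 CPM in Hopx Cd70 cells and 29.6 CPM in comparison cells, and Il17rb, the interleukin 25 receptor, at 40.6 and 73.1 CPM.

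The cells were checked against cell type markers. Among the ILC2 transcription factors, Gata3 was at 748 CPM in Hopx Cd70 cells and 593 CPM in comparison cells, and Rora at 2304 and 1869 CPM, neither past 1.5-fold. Bcl11b, which sustains the ILC2 programme, was lower at 124 CPM in Hopx Cd70 cells and 201 CPM in comparison cells. Of 17 measured ILC2 markers 3 were higher and 4 lower, with a median log2 ratio of -0.18. Of 12 ILC3 markers 2 were higher, among them the stem cell factor receptor Kit at 309 CPM in Hopx Cd70 cells and 133 CPM in comparison cells, and 4 were lower, among them Tmem176b at 86.7 and 144 CPM. Of 14 type 2 transcription factors 4 were higher, namely Irf4, Zeb2, Bach2 and Batf, and 3 were lower, with Maf at 201 CPM in Hopx Cd70 cells and 443 CPM in comparison cells.

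Among dendritic cell markers Flt3, Itgax, Clec9a, Cd209a and Cd207 had 0 UMIs in Hopx Cd70 cells, and the summed level of that list, 1206 CPM in Hopx Cd70 cells and 410 CPM in comparison cells, came mainly from Ccr7 and Cd74. Zbtb46, a transcription factor of dendritic cells, was also higher, at 47.7 CPM in Hopx Cd70 cells and 23.9 CPM in comparison cells, and the part of such cells in these values was not tested. The MHC class II genes H2-Ab1 at 3.18 CPM in Hopx Cd70 cells and 2.53 CPM in comparison cells, and H2-Eb1 at 4.77 and 2.37 CPM, stood near the level of 3 UMIs. Among macrophage markers Csf1r, Adgre1, Lyz2, C1qa, C1qb, C1qc, Mrc1 and Cd14 had 0 UMIs in Hopx Cd70 cells. The mast cell and basophil markers Cpa3, Tpsb2, Cma1, Fcer1a, Ms4a2 and Mcpt8 also had 0 UMIs there. Kit, given above among ILC3 markers, is on the mast cell list too and was its only measured gene. It was higher, at 309 CPM in Hopx Cd70 cells and 133 CPM in comparison cells, and the part of mast cells was not tested. Fcer1g, of the macrophage list, was at 25.5 CPM in Hopx Cd70 cells and 25.6 CPM in comparison cells, and Tyrobp at 9.54 and 3.16 CPM. Of 9 measured markers of alpha beta T cells 1 was lower, Bcl11b again. Cd3e had 1 UMI in Hopx Cd70 cells and 25 in comparison cells, while Cd3g was at 453 and 544 CPM, so part of the T cell receptor complex was read in both groups. Of 7 measured markers of gamma delta T cells 0 were higher and 3 lower, with a median log2 ratio of -0.37. Trdc, 1 of the 3, had 33 UMIs in Hopx Cd70 cells and 436 in comparison cells. Trdv4 was close, with 226 and 1177 UMIs and a log2 ratio of -0.05. The part of T cells in either group was not tested.

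Metabolic and housekeeping lists moved little. Of 15 glycolysis genes Pgk1 and Tpi1 were higher and 0 were lower (median 0.28), and of 14 oxidative phosphorylation genes, 15 proteasome genes and 12 MHC class I genes none passed 1.5-fold in either direction. Their medians were 0.22, 0.16 and 0.18. Checkpoint and costimulation genes had 4 of 11 higher and 0 lower, with Cd81 at 181 CPM in Hopx Cd70 cells and 79.5 CPM in comparison cells and Pdcd1, which encodes PD-1, at 148 and 91.7 CPM. The prostaglandin receptor Ptger4 was lower, at 23.9 CPM in Hopx Cd70 cells and 67.2 CPM in comparison cells, while the neuropeptide receptor subunit Ramp1 was higher at 330.1 and 169 CPM.

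**Figure D2:**
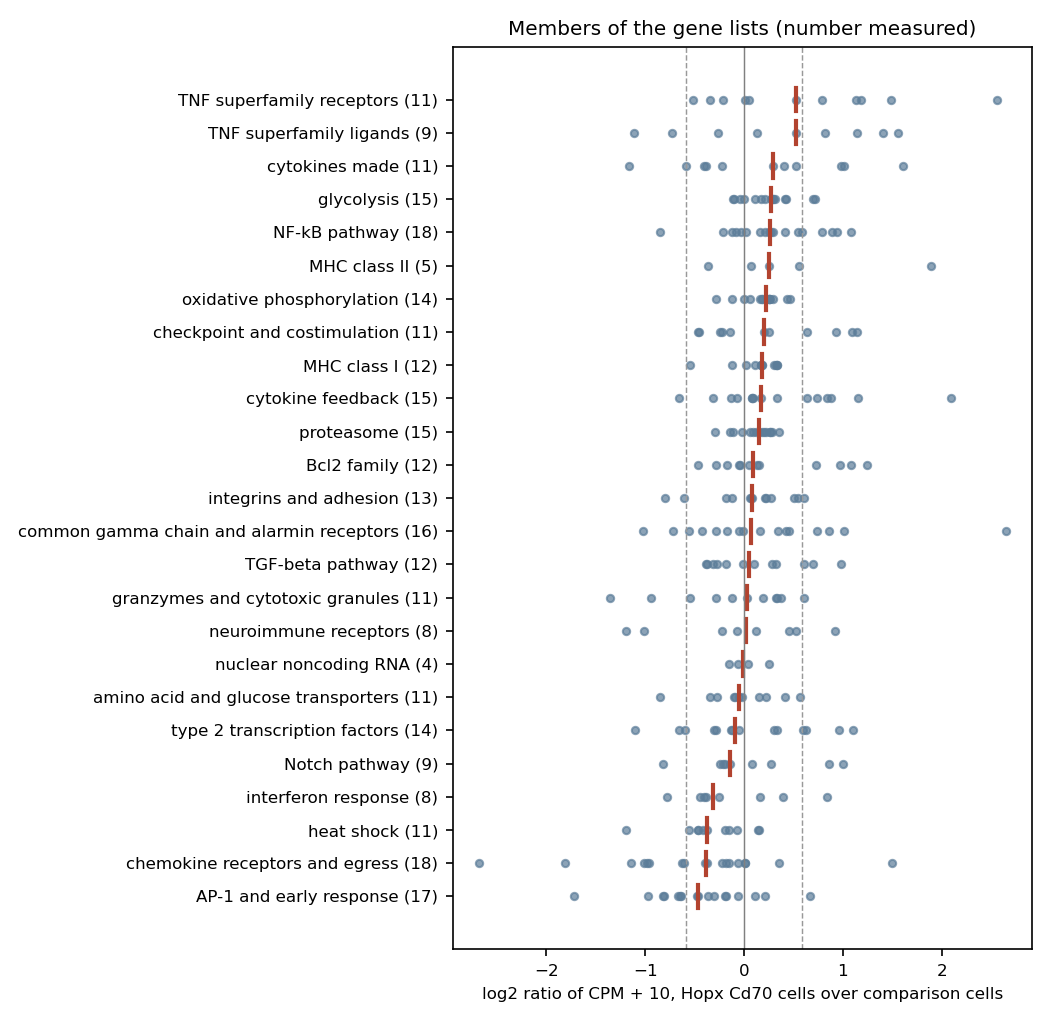
Log2 ratio of CPM + 10, Hopx Cd70 cells over comparison cells, for each measured gene (points) of 25 lists, with the median of each list as a red bar and dashed lines at 1.5-fold. The TNF superfamily lists lie furthest right, both with a median of 0.53, and the early response list furthest left at -0.46.

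Cells with one of the markers alone were set beside the Hopx Cd70 cells. There were 205 cells with at least 3 UMIs of Hopx and no Cd70 (median 5389 UMIs) and 407 with Cd70 and no Hopx (median 5143 UMIs). The comparisons share the comparison cells, so the levels are given side by side. Csf2 was at 227 CPM with both markers, 49.8 CPM with Hopx alone and 263 CPM with Cd70 alone, against 67.8 CPM with neither. Tnfsf9 was at 255 CPM with both, 55.1 CPM with Hopx alone and 321 CPM with Cd70 alone, against 89.8 CPM with neither. For these genes the cells with Hopx alone were on the side of the comparison cells. Tnfrsf4 stood at 341 CPM with both, 91.8 CPM with Hopx alone and 270 CPM with Cd70 alone, and Il1r2 at 59.7, 8.74 and 52.5 CPM. Ccr2 ran the other way, at 17.5 CPM with both, 100.5 CPM with Hopx alone and 28.4 CPM with Cd70 alone.

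Other genes stood nearer to Hopx. Cxcl3 was at 323 CPM with both markers, 289 CPM with Hopx alone and 131 CPM with Cd70 alone, against 66.1 CPM with neither. Slc15a3, a lysosomal peptide carrier, was at 103 CPM with both, 98.8 CPM with Hopx alone and 52.0 CPM with Cd70 alone. Nfkbid was at 54.1 CPM with both, 36.7 CPM with Hopx alone and 96.9 CPM with Cd70 alone, and Ptger4 at 23.9, 23.6 and 50.1 CPM. Among cells of like depth Nfkbid was at 67.4 CPM with both, 21.9 CPM with Hopx alone and 92.3 CPM with Cd70 alone. There it did not stand nearer to Hopx. Bcl2a1b was at 303 CPM with both, 286 CPM with Hopx alone and 334 CPM with Cd70 alone, against 138 CPM with neither. Among cells of like depth Bcl2a1b was lower with Hopx alone, at 210 CPM, than with both (325 CPM) or with Cd70 alone (346 CPM). With neither marker it was at 138 CPM there. Of these 4 combinations, Tff1 and Tnfsf8 were highest with both, as were other named genes, Tnfrsf4 and Stat5a among them. Tff1 was at 111 CPM with both, against 24.5 CPM with Hopx alone and 20.3 CPM with Cd70 alone. Tnfsf8 was at 66.0 CPM with both, against 18.4 and 14.2 CPM. Tff1 was still highest with both among cells of like depth, at 77.5 CPM, against 39.1 CPM with Hopx alone. Cd70 alone gave 3.33 CPM of Tff1 there, close to the 2.22 CPM with neither.

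**Figure D3:**
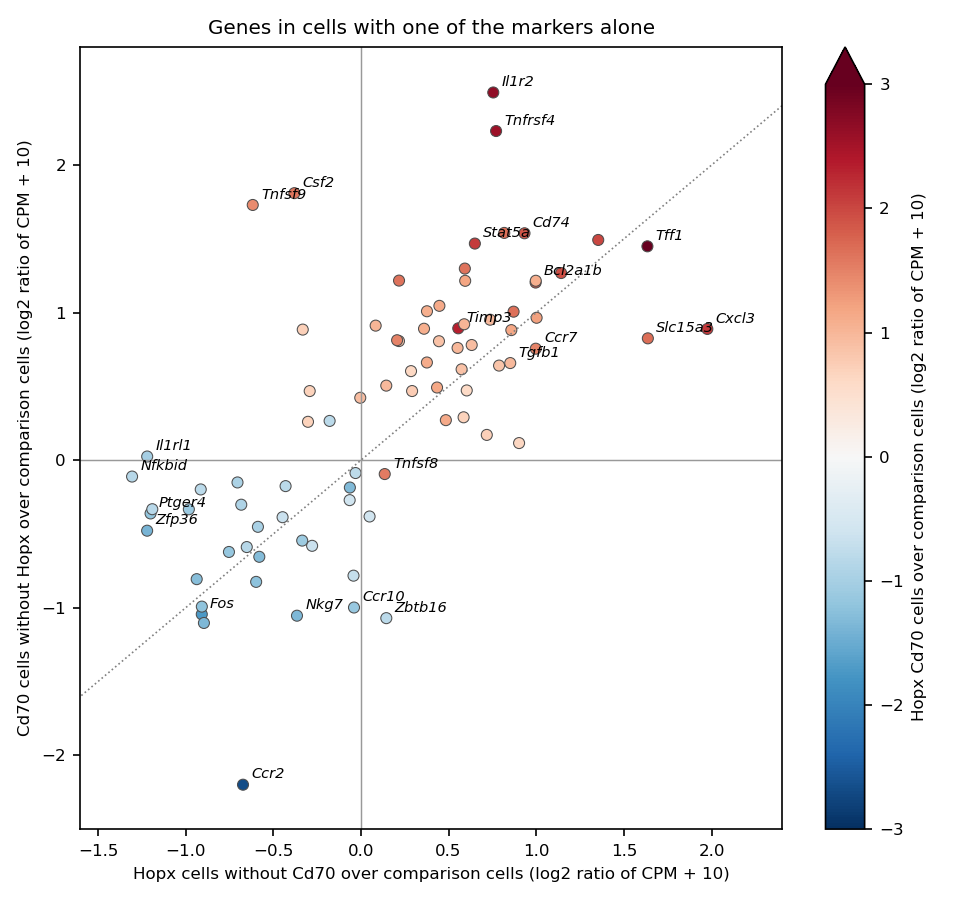
Log2 ratio of CPM + 10 over comparison cells in cells with Hopx and no Cd70 (x axis) and in cells with Cd70 and no Hopx (y axis), for genes past 1.5-fold in Hopx Cd70 cells among those named here or by the lists, without Krtap genes, coloured by the ratio in Hopx Cd70 cells and with a dotted line of equality. Csf2 and Tnfsf9 lie high on the y axis and left of 0 on the x axis, Cxcl3 and Slc15a3 lie furthest right, and Ccr2 lies lowest.

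Cd70 was present in 48.5% (43.5 to 53.5%) of cells with at least 3 UMIs of Hopx, 34.1% of cells with 1 or 2, and 22.1% of cells with none. With Cd70 read in cells thinned to 3000 UMIs these shares were 40.4%, 30.5% and 18.6%. Among cells of like depth they lay closer together, at 47.8%, 39.2% and 30.0%. The Hopx classes were set on unthinned counts, with median depths of 5670.5, 5001.5 and 4509 UMIs, and since both genes are those of the rule these shares are a description.

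The shares of cells with a UMI were also taken at equal depth. Thinning left out 5 of 193 Hopx Cd70 cells and 302 of 1438 comparison cells. Tnfrsf4 was found in 45.2% (38.0 to 52.6%) of Hopx Cd70 cells and 8.45% (6.90 to 10.2%) of comparison cells, or 59.1% and 10.8% unthinned. Ccr7 was found in 60.1% of Hopx Cd70 cells and 27.6% of comparison cells, or 67.4% and 29.8% unthinned. Ccr2 was found in 1.60% (0.330 to 4.59%) of Hopx Cd70 cells and 16.4% (14.3 to 18.7%) of comparison cells, or 3.11% and 19.7% unthinned. The keratinocyte genes Krt14, Krt10 and Perp were read the same way. Krt5 and Krt1 of the same list had 0 UMIs in Hopx Cd70 cells. Whether the UMIs of Krt10 and Perp are free RNA was not tested. Krt14 was found in 0.532% of Hopx Cd70 cells and 0.440% of comparison cells, Krt10 in 4.79% and 3.52% (7.77% and 3.89% unthinned), and Perp in 6.91% and 7.57% (12.4% and 8.83% unthinned). The share of Ccr2 in Hopx Cd70 cells is below that of Krt10 (2.21 to 8.89%) and above that of Krt14, with intervals that overlap. Unthinned, its 22 UMIs lay in 6 cells with 31.8% in 1 cell, whereas the 17 UMIs of Krt10 lay in 15 cells. Whether these Ccr2 UMIs are free RNA was not tested. In comparison cells the share of Ccr2 is above those of all 3 genes.

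Of 4 cytokine genes, Areg, Il5, Il13 and Csf2, none was found in 10.6% of thinned Hopx Cd70 cells and 34.8% of comparison cells. Exactly 2 were found in 39.4% of Hopx Cd70 cells and 19.0% of comparison cells, 3 in 15.4% and 6.78%, and all 4 in 4.79% and 1.496%.

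**Figure D4:**
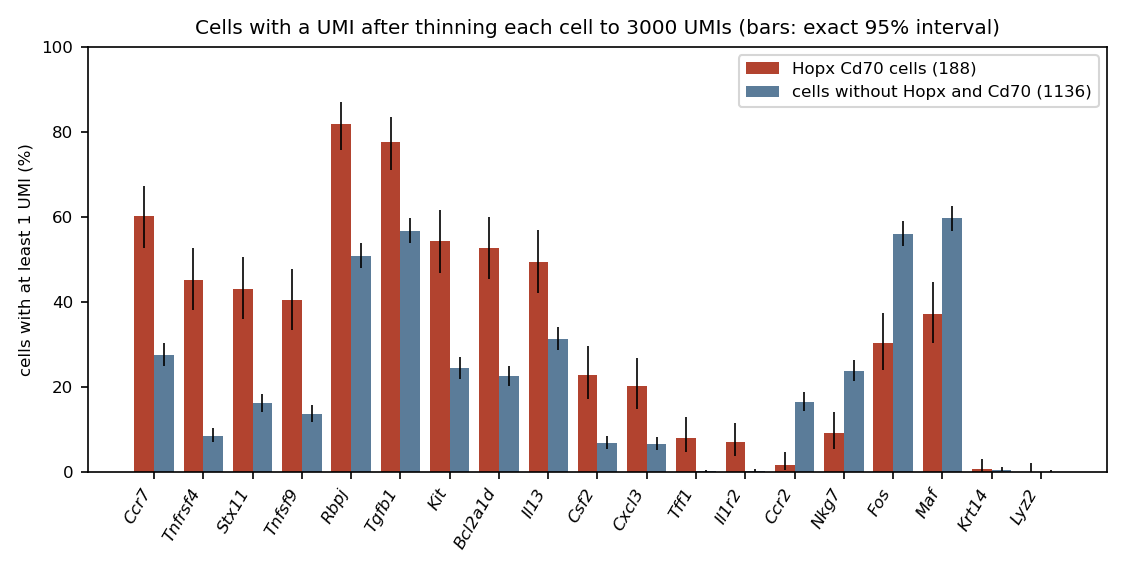
Share of cells with at least 1 UMI after thinning to 3000 UMIs in 188 Hopx Cd70 cells (red) and 1136 comparison cells (blue), with exact 95% intervals. Tnfrsf4 reaches 45.2% in Hopx Cd70 cells and 8.45% in comparison cells, Ccr2 1.60% and 16.4%, and Krt14 and Lyz2 lie near 0 in both. Krt10, at 4.79% in Hopx Cd70 cells and 3.52% in comparison cells, and Perp, at 6.91% and 7.57%, are not drawn.

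The Hopx Cd70 cells also differed among themselves. They were ordered by the Cd70 share of each cell's UMIs and divided into 96 cells above and 97 below. Cd70 and Hopx are genes of the rule, so these divisions are a description. The upper cells had 357 CPM of Csf2, against 107 CPM in the lower cells, and 839 CPM of Il13, against 305 CPM. Tnfrsf4 was at 482 CPM in the upper cells and 210.1 CPM in the lower cells, and Tnfsf9 at 363 and 155 CPM. Ordered by Hopx share instead, Csf2 differed less, at 282 CPM in the upper cells and 177 CPM in the lower cells, whereas Slc15a3 was at 173 and 36.9 CPM and Cxcl3, with 19.7% of its UMIs in 1 cell, at 421 and 232 CPM. Tff1 was at 193 CPM in the upper cells and 33.7 CPM in the lower cells by Cd70 share, and at 190 and 36.9 CPM by Hopx share. Since 1 cell held 30.9% of the Tff1 UMIs, both divisions of Tff1 depend on where that cell falls.

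Cells just inside and just outside the rule were set side by side. The 24 cells with 3 UMIs of Hopx and Cd70 held 605 CPM of Ccr7, against 575 CPM in the 34 cells with 2 UMIs of Hopx and Cd70, and 326 CPM of Tnfrsf4, against 428 CPM, with overlapping intervals for both genes. Bcl2a1b was at 166 CPM (108 to 246) in the cells just inside and 324 CPM (248 to 415) in those just outside. On the Cd70 side, the 54 cells with at least 3 UMIs of Hopx and 1 UMI of Cd70 held 159 CPM of Tnfrsf4, against 91.8 CPM in the cells with none. The markers Ccr7, at 628 and 635 CPM, and Bcl2a1b, at 220 and 286 CPM, were not higher with 1 UMI of Cd70. Ccr2, at 44.0 and 100.5 CPM, and Fos, at 276 and 385 CPM, were lower.

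Cells were also divided by whether they held UMIs of Xist only or of Y-linked genes only. The labels name no animals, so this is a division of cells and not of replicates. Tnfrsf4 was 6.23-fold higher in Xist-only cells (99 Hopx Cd70 and 529 comparison cells) and 7.56-fold higher in Y-only cells (73 and 480 cells). Ccr2 was at 21.7 CPM in Hopx Cd70 cells and 179 CPM in comparison cells among Xist-only cells, and at 17.1 and 161 CPM among Y-only cells. Csf2 differed: it was at 296 CPM in Hopx Cd70 cells and 53.1 CPM in comparison cells among Xist-only cells, a ratio of 5.58, but at 167 and 105 CPM among Y-only cells, a ratio of 1.59. Fas had ratios of 3.36 and 1.61 in Xist-only and Y-only cells. No test of this difference could be run with 1 sample.

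**Figure D5:**
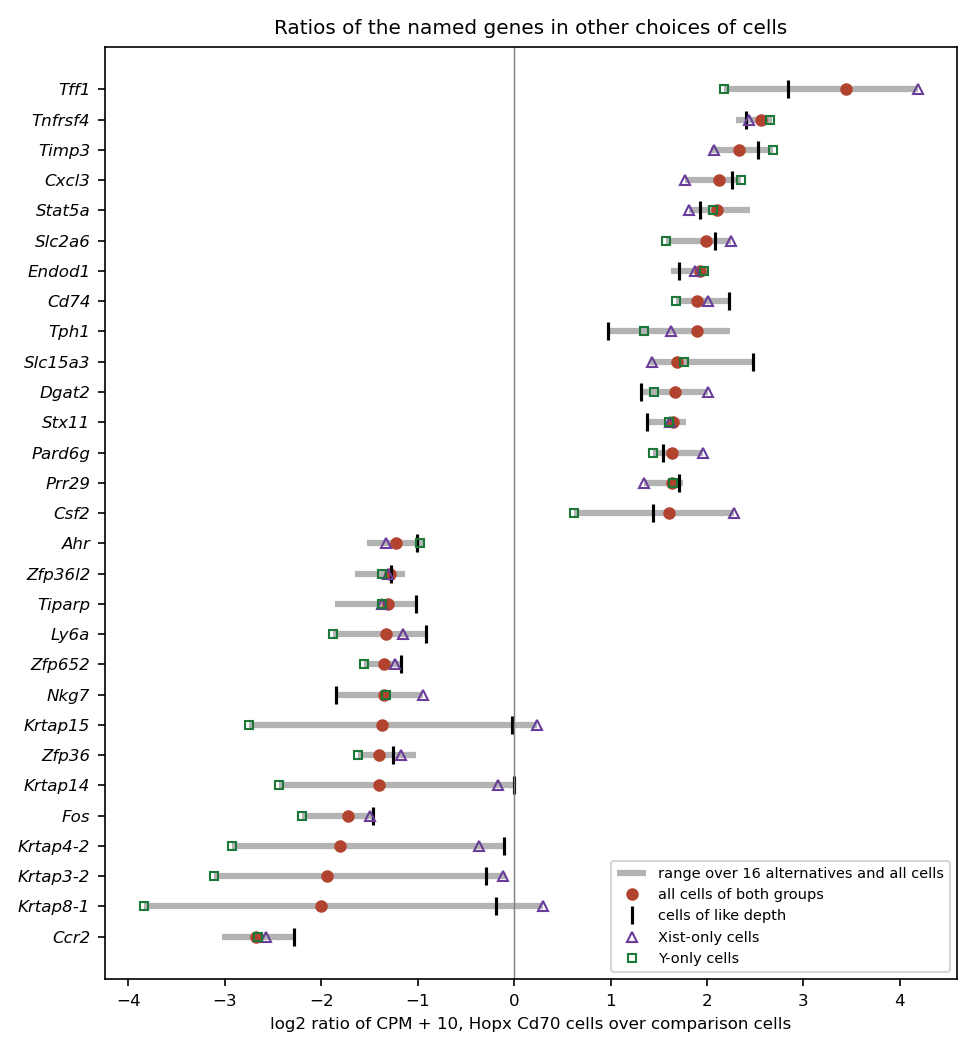
Log2 ratio of CPM + 10, Hopx Cd70 cells over comparison cells, for the genes of the plot of levels: all cells (red), cells of like depth (black bars), Xist-only cells (triangles), Y-only cells (squares) and the range over 16 alternatives (grey). Tnfrsf4 keeps within 2.30 to 2.68 and Ccr2 stays below -2, Csf2 runs from 0.62 in Y-only cells to 2.28 in Xist-only cells, and Krtap8-1, Krtap14 and Krtap15 reach 0 or above in some choices.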

How the data were processed

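The deposited table holds UMI counts per gene symbol and cell, which the authors had not scaled: values are whole numbers and totals differ between cells. The submitters' processing notes name the mm10 build, Cell Ranger 3.1.0 and Seurat 4.1.0 without parameters. Per the labels' protocols, a 5' kit was used, so UMIs count molecules near transcript starts.

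For each group of cells UMIs were summed per gene and expressed as CPM, per 1000000 UMIs of the group, with exact Poisson 95% intervals. Ratios carry intervals derived from an exact binomial interval on the split of UMIs, and shares have exact (Clopper-Pearson) binomial intervals, while a count of 0 outside these was taken to allow up to 3. These cover counting error only, since cells are not replicates. A gene was called at 1.5-fold on CPM + 10 with at least 100 UMIs over both groups. The rule for named genes took the 15 largest and 15 smallest of these ratios, up to 4 genes with at least 50 UMIs of each of 15 marker and 25 pathway lists, and the rule's markers. Genes that the cell rule used were not named this way, nor were Xist, Y-linked, antigen receptor, haemoglobin, ribosomal, mitochondrial or unnamed genes. Areg, Il5, Gata3, Rora, Cd27 and other list genes outside that rule are named beside their list and were chosen after their values were seen. Some genes that the rule picked are not reported here. The members and lists were chosen with earlier results of these data known.

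Cells were thinned to 3000 UMIs without replacement (seed 1) with numpy 2.4.6 and scipy 1.17.1 under Python 3.11.15. TMM factors came from edgeR 4.0.16 under R 4.3.3 and served only as another scaling. The interval and ratio code was tested on simulated data. Upstream windows came from RefSeq on GRCm38.p6 and gene coordinates from GENCODE M21, and windows were aligned with Biopython 1.88. No doublet caller was run; the 5% of cells with most UMIs were left out in an alternative. No column of the table was left unused.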

Additional observations from a re-analysis of the deposited data

How the results depend on the processing

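No paired analysis was possible because the table is 1 pooled sample and the result comes from no test. Of 92 named genes past 1.5-fold, 89 kept their direction in all 16 alternatives read for single genes, and 61 stayed past 1.5-fold in all 16. These 16 leave out the pseudocount of 1 and the other settings of fold and of UMIs per gene. Over the 19 alternatives read for the counts, the counts of higher and lower genes moved by over 1.5 times in few cases. They were 102 and 85 with at least 500 UMIs per gene, 398 and 512 with a pseudocount of 1, and 79 and 49 at 2-fold. With the rule applied after thinning, 407 genes were lower. Fewer genes pass the stricter limits by construction, and the cause of the last count was not tested. Among cells of like depth (97 Hopx Cd70 and 460 comparison cells with medians of 5946 and 5705.5 UMIs), 195 genes were higher, 151 of them shared with the 259, and 200 were lower, 104 of them shared with the 247. There the median of the TNF ligands was 0.02, against 0.53 over all cells, and Tph1 had a log2 ratio of 0.97 and Cd160 of 0.05, against 1.89 and 1.14. The log2 ratio of Nfkbid was -0.14 among cells of like depth, against -0.85 over all cells. TMM scaling gave 240 higher and 269 lower genes, and leaving out the 5% of cells with most UMIs gave 269 and 283.

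The log2 ratio of Krtap8-1 reversed to 0.0795 against comparison cells with Gata3 and to 0.30 in Xist-only cells, and that of Krtap15 to 0.0696 and 0.24. Other alternatives, leaving out cells rich in haemoglobin or Krtap UMIs and the combinations within cells of like depth, were chosen after seeing the data. The first gave 263 higher and 245 lower genes. In the second, against comparison cells, Tph1 with Cd70 alone was at -0.10, Krtap8-1 and Krtap4-2 with Hopx alone at 0.14 and 0.11, Krtap15 with Cd70 alone at 1.26 and Cd3d with Hopx alone at -0.44. The cause of these reversals was not tested. Depth limits the low genes: 3 UMIs are 2.39 CPM in Hopx Cd70 cells, so levels near that, such as those of Ccr10 and Cxcr3, are loosely bounded.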
